A study of Mus musculus with 10 samples.

Results

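Fos, Fosb, Jun, Junb, Egr1, Atf3, Nr4a1, Ier2, Dusp1 and Zfp36 are immediate early genes whose RNA is also known to rise while tissue is taken apart into single cells. These 10 genes were listed by name, with earlier results of these data known. All 10 were measured among the 42612 genes joined over the plate tables and among the 32285 genes of the droplet matrices. The wells and cells come from mouse ear skin, and the questions were how much of each gene every plate and library held, how many cells carried it, and how far the libraries differed.

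The plate samples are LECs (lymphatic endothelial cells) sorted as live CD31+ PDPN+ cells and sequenced with Smart-seq, 1 cell a well, on 8 plates. Tie1fl/fl and Tie1 Tie2fl/fl plates came from pups without Cre, and Tie1iΔLEC and Tie1 Tie2iΔLEC plates from pups of the same floxed strains with Prox1-CreERT2, with 2 plates a genotype. All pups, controls included, received 62.5 μg of 4-OHT (4-hydroxytamoxifen) at P1 to P5, so Cre was the difference within a strain. Plate 1 of Tie1fl/fl and plate 1 of Tie1iΔLEC are labelled female and the other 6 plates male. The age label of the plates repeats the days of 4-OHT, and the study's account places the collection at P28.

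The droplet samples are 10x libraries of CD31-sorted endothelial cells from wild-type C57Bl/6j mice, 1 library per antibody. Mice received 20 mg/kg of an Ang2-blocking antibody (Ang2 Ab) or mouse IgG1 every 3 days from P16 to P21. The title of the Ang2 Ab library holds the word control, and its group was taken from the treatment label. Both protocols digested minced skin for 15 min at 37 °C with collagenase II. How many animals were pooled into a plate or a library is not in the labels, and the droplet difference therefore has no replicate check. Both droplet libraries are labelled male, yet Xist UMIs were found in 55.3% of kept cells with IgG and 38.8% with Ang2 Ab, and UMIs of Y-linked genes in 34.2% and 45.1%. Ratios are given below for either kind of cell.

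An immediate early gene is transcribed within minutes of a stimulus by factors that are already in the cell, such as SRF with its ELK partners and CREB, and needs no new protein. Fos, Fosb, Jun and Junb encode subunits of the AP-1 transcription factor, Egr1 a zinc finger factor, Atf3 a stress-induced factor of the ATF/CREB family and Nr4a1 an orphan nuclear receptor. Ier2 encodes a small nuclear protein. Dusp1 and Zfp36 encode brakes on the response: DUSP1 removes phosphates from MAP kinases, and ZFP36 (tristetraprolin) speeds the decay of mRNAs with AU-rich elements. Enzymatic digestion at 37 °C is a well known trigger of these genes, and flow and growth factors induce several of them in endothelium.

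Short regulatory sequences were read before the transcription start of the members, and none was found for all of them. RefSeq windows of 250 bases before the transcription start (GRCm38.p6) were available for 8 of the 10 members, all but Egr1 and Ier2. The core of the cAMP response element (CRE core, TGACG on either strand) lay in 6 of these 8 windows, those of Fos, Fosb, Junb, Atf3, Nr4a1 and Dusp1. It lay in 17.8% of all 32851 windows, and 3.9% held 2 or more. Fos held 2, Dusp1 3 and Nr4a1 4, and these 3 windows are shown because they carry the most copies. Letters in capitals mark the CRE cores, and the first is the window of Fos on the plus strand, chr12:85473640-85473889, with a TATA box (TATAAA) 33 bases before the start.

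Fos: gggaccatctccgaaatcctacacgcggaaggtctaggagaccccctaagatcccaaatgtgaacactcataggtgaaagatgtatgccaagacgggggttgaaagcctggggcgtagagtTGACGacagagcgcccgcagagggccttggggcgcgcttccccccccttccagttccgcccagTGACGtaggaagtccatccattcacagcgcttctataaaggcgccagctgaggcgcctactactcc
Nr4a1, chr15:101266596-101266845, plus strand: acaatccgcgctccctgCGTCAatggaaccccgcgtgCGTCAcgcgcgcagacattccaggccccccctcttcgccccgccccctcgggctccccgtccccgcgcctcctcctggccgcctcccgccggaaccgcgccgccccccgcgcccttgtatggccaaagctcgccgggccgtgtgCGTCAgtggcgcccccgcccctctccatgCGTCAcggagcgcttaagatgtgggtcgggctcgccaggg
Dusp1, chr17:26508473-26508722, minus strand: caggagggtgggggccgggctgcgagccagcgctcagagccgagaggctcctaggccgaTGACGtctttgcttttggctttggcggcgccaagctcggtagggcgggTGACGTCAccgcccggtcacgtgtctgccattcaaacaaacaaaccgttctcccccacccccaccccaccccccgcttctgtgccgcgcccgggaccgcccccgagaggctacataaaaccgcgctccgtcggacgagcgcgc

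In the Dusp1 window 2 cores overlapped in a full CRE (TGACGTCA), 143 bases before the start. The full CRE was present in 1.55% of all windows and in no other member's. A CArG box, the binding motif of SRF, was found for Zfp36, 58 bases before its start, against 1.47% of windows. The AP-1 motif TGANTCA was in none of the 8 windows and in 6.75% of all. Matches are descriptions of letters, and no match says only that these letters are not in the window.

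Of 3048 wells, 3026 had at least 1000 genes, and 2760 of these lay in LEC clusters, 307 to 365 a plate. On the plates a LEC cluster is any that the markers of no other cell type named. Wells in a fibroblast cluster (231) and a keratinocyte cluster (35) were left out of the sums. The LEC wells held 67404983 to 105045844 counts a plate. The targeted genes matched the labels: Tie1 stood at 2205 to 2867 CPM (counts per 1000000, TMM-normalised) on the 4 control plates and at 460 to 744 on the 4 deleted ones. Tek, which encodes Tie2, stood at 32.2 and 53.1 CPM on the Tie1 Tie2iΔLEC plates and at 213 to 340 on the other 6. The LEC markers Pdpn, Mmrn1, Ccl21a, Thy1, Fxyd6, Reln, Prox1 and Flt4 were at 112 CPM or more on every plate. Tables of 4 plates were keyed by gene symbol and those of the other 4 by Ensembl identifier, with 1 plate of each layout in every genotype.

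Across the 8 plates the 10 members together took 0.124% to 0.259% of the counts. Per kilobase of exon, the mean level over the 8 plates was highest for Dusp1 (190 ± 95.4 CPM per kb, SD), followed by Ier2 (153 ± 20.4), Jun (110 ± 16.4), Junb (83.9 ± 16.2) and Fos (60.2 ± 38.1). A lower group held Zfp36 (14.0 ± 5.89), Egr1 (12 ± 7.19), Atf3 (7.61 ± 3.94), Nr4a1 (6.23 ± 3.74) and Fosb (1.79 ± 1.06). Neighbours in this order overlapped between plates, except that the lowest plate of Fos (23.0 CPM per kb) lay just above the highest of Zfp36 (22.3). The exons of Jun share 232 bases with its antisense gene Junos, those of Junb 173 with Prdx2 and those of Zfp36 125 with Gm44710. Reads of such partners cannot be told apart where counting is not stated to use strand.

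The AP-1 genes differed in how far the plates spread, here and below in TMM-normalised CPM. Jun stood at 304 and 366 on the Tie1fl/fl plates, 348 and 365 on Tie1iΔLEC, 472 and 350 on Tie1 Tie2fl/fl and 334 and 278 on Tie1 Tie2iΔLEC. Both Tie1 Tie2iΔLEC plates were below both of their controls, and the Tie1 strain overlapped. Junb stood at 130 and 215 on Tie1fl/fl, 197 and 239 on Tie1iΔLEC, 203 and 130 on Tie1 Tie2fl/fl and 238 and 201 on Tie1 Tie2iΔLEC. Deleted and control plates of Junb overlapped in both strains. Between plates of the same table layout the deleted plate was higher each time. Junb went from 130 to 197 and 215 to 239 in the Tie1 strain. It went from 203 to 238 and 130 to 201 in the Tie1 Tie2 strain. The share of all genes with such a pattern was not counted.

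Fos spread more widely, with 76.0 and 136 on Tie1fl/fl, 148 and 60.0 on Tie1iΔLEC, 275 and 53.1 on Tie1 Tie2fl/fl and 295 and 101.4 on Tie1 Tie2iΔLEC. The plates of each genotype differed so much that deleted and control plates overlapped in both strains. Fosb was the lowest member per kilobase, at 1.42 to 24.8 CPM, and its lowest and highest plate were the 2 Tie1 Tie2fl/fl plates.

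Among the other transcription regulators, Atf3 stood at 14.5 and 23.7 on Tie1fl/fl, 17.5 and 26.9 on Tie1iΔLEC, 7.46 and 2.60 on Tie1 Tie2fl/fl and 27.3 and 12.8 on Tie1 Tie2iΔLEC. The 2 Tie1 Tie2fl/fl plates were the lowest of the 8. Egr1 ranged from 21.1 to 115 and Nr4a1 from 2.03 to 38.2, both with overlap in each strain. Ier2 was steady, at 187 and 275 on Tie1fl/fl, 236 and 272 on Tie1iΔLEC, 236 and 258 on Tie1 Tie2fl/fl and 225 and 176 on Tie1 Tie2iΔLEC. Its Tie1 Tie2iΔLEC plates were below both controls by little.

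Of the brakes, Dusp1 stood at 353 and 489 on Tie1fl/fl, 558 and 619 on Tie1iΔLEC, 629 and 345 on Tie1 Tie2fl/fl and 1420 and 668 on Tie1 Tie2iΔLEC. Deleted plates were above the controls of their strain in all 4 pairs of each strain. Within a single strain this held for 15.4% of all genes with Tie1 deletion and 16.6% with Tie1/-2 deletion. The share of all genes with such a pattern in both strains was not counted. Zfp36 lay between 24.0 and 81.3 and overlapped in both strains. The plot of members by plate shows both the wide spread of Fosb and Nr4a1 and the separation of Atf3 and Dusp1.

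**Figure D1:**
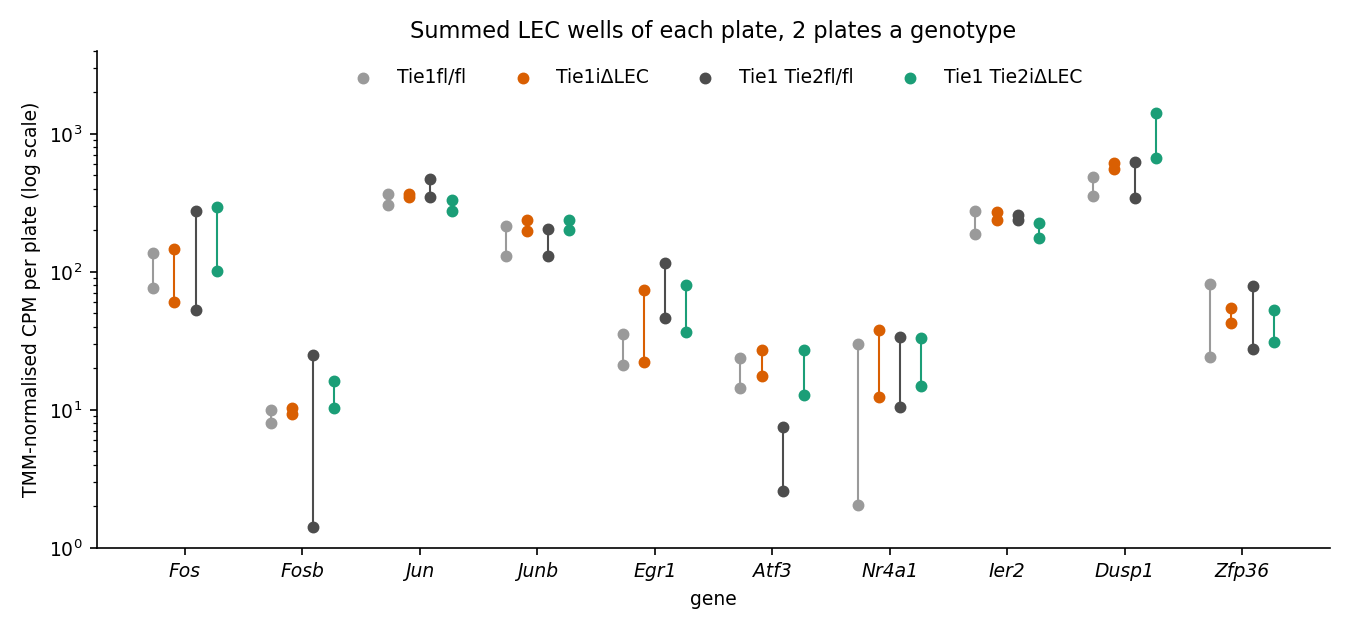
TMM-normalised CPM (vertical log axis) of each of the 10 genes in the summed LEC wells of each plate, as 1 point a plate, with a line joining the 2 plates of a genotype. Atf3 sits at 7.46 and 2.60 CPM on the Tie1 Tie2fl/fl plates and at 12.8 to 27.3 CPM on all others, and Dusp1 reaches 1420 CPM on plate 1 of Tie1 Tie2iΔLEC.

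With Tie1 deletion, no member passed edgeR's quasi-likelihood test at an adjusted p under 0.05, and none had an unadjusted p under 0.05. Of the 19925 genes tested, 0.0% passed and 4.32% had an unadjusted p under 0.05. Tie1 itself, the deleted gene, did not pass (log2 fold change -1.92, SE 0.25, edgeR adjusted p = 0.271). In simulated data of the same 19925 genes, this contrast recovered 2.985% of genes changed by a log2 fold of 1, 53.73% at 2 and 63.64% at 3. The absence of member calls therefore does not exclude changes of that size. DESeq2 called none of the members and 173 genes. The log2 fold changes of 8 members were positive and of 2 negative, with a median of 0.18 against 0.00 over all genes. The largest were those of Egr1 (0.75, SE 0.66) and Nr4a1 (0.66, SE 1.11), smaller than or close to their errors. The Dusp1 plates did not overlap (log2 fold change 0.48, SE 0.40, edgeR adjusted p = 1.0), a pattern that 15.4% of all genes had in that direction. No member had both deleted plates below both controls, against 13.3% of all genes.

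With Tie1/-2 deletion, edgeR again called none of the 10 members, and 1.19% of all genes passed. Atf3 and Dusp1 were the members with an unadjusted p under 0.05, which 10.6% of all genes had. The log2 fold change of Atf3 was 1.99 (SE 0.63) with an edgeR adjusted p of 0.297, and that of Dusp1 was 1.10 (SE 0.40) with 0.367. Both deleted plates were above both controls for these 2 genes and for 16.6% of all genes. They were below for Jun (-0.42, SE 0.22, edgeR adjusted p = 0.580) and Ier2 (-0.30, SE 0.25, 0.777), and for 20.6% of all genes. The median over the 10 members was 0.06, against 0.00 over all genes.

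The call of Atf3 turned on the tool and the filter, and that of Dusp1 on the filter. DESeq2 called Atf3 (log2 fold change 2.01, DESeq2 adjusted p = 0.0273) and not Dusp1 (0.151), and edgeR without the filter on low counts called both (adjusted p = 0.0148 and 0.00280). Over all alternatives the adjusted p of Atf3 ranged from 0.0148 to 0.642 and that of Dusp1 from 0.00280 to 0.741. Without single plates the log2 fold change of Atf3 ranged from 1.31 to 2.95 and that of Dusp1 from 0.42 to 1.61. Both were lowest without plate 1 of Tie1 Tie2iΔLEC and highest without plate 1 of Tie1 Tie2fl/fl. Each of these plates was keyed by Ensembl identifier, so such a fit sets a single symbol-keyed plate against plates of both layouts. Both genes were lower on symbol-keyed plates (below), and the part of layout in these ranges was not tested. In simulated data of the same 19925 genes, this test recovered 7.46% of genes changed by a log2 fold of 1, 58.2% at 2 and 68.2% at 3. The changed genes were drawn at random above a low count cut-off, with the spread typical of genes at their level. Recovery is therefore an average over such genes and was not measured for Dusp1 or Atf3.

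The effects of the 2 deletions were compared directly. The difference in log2 fold change, Tie1/-2 minus Tie1, was 1.78 (SE 0.87) for Atf3, 0.62 (SE 0.56) for Dusp1 and -0.52 (SE 0.32) for Jun, with edgeR adjusted p of 0.735, 0.946 and 0.839. None of the 10 members passed, against 0.13% of all genes. None had an unadjusted p under 0.05, against 7.4%, and DESeq2 called none of the members.

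The plates were also compared by the layout of their tables. All 10 log2 fold changes of symbol-keyed against Ensembl-keyed plates, with genotype in the fit, were negative, and 47.3% of all genes were lower in that direction. That of Egr1 was -0.01 (SE 0.57) and turned to 0.048 with all wells. Their median was -0.61, against 0.04 over all genes. Zfp36 was 24.0, 27.5, 42.8 and 31.2 CPM on the symbol-keyed plates and 81.3, 78.4, 54.5 and 53.0 on the Ensembl-keyed ones, so that the layouts did not overlap. Junb did not overlap either, at 130, 130, 197 and 201 CPM against 215, 203, 239 and 238. The share of all genes without overlap between the layouts was not counted, so these 2 genes are described only.

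Between the layouts edgeR called none of the members (0.00502% of all genes passed), while 5 had an unadjusted p under 0.05, all of them lower. That direction and threshold held for 6.38% of all genes. DESeq2 called 4 of the 5, Zfp36 (-1.12, DESeq2 adjusted p = 0.00483), Atf3 (-1.01, 0.00602), Dusp1 (-0.67, 0.0242) and Junb (-0.50, 0.0312), and not Jun. The edgeR log2 fold changes were -1.10 (SE 0.28) for Zfp36, -0.98 (SE 0.27) for Atf3, -0.64 (SE 0.17) for Dusp1, -0.47 (SE 0.13) for Junb and -0.26 (SE 0.10) for Jun, with edgeR adjusted p from 0.349 to 0.408. LEC wells of symbol-keyed plates had medians of 5784 to 7002 genes and those of Ensembl-keyed plates of 3596 to 4976. Both plates labelled female were symbol-keyed. Each symbol-keyed table held 378 wells and 0.0% spike-in counts, and each Ensembl-keyed one 384 wells and 0.0832% to 0.155%. Whether the layouts also differ in sort day is not in the labels, and these causes cannot be told apart.

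**Figure D2:**
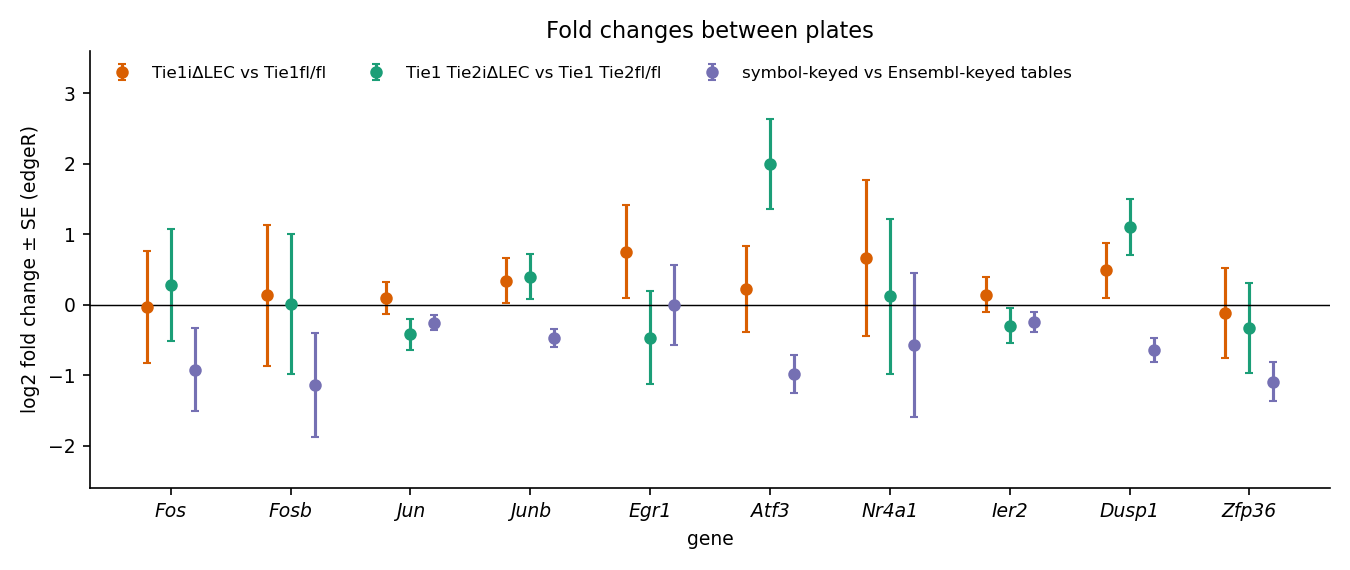
Log2 fold changes with their standard errors (vertical axis, edgeR) of the 10 genes for Tie1 deletion, Tie1/-2 deletion and symbol-keyed against Ensembl-keyed plates, as 1 point a gene and contrast. All 10 points of the layout contrast lie below 0, from -1.14 for Fosb to -0.01 for Egr1, and Atf3 has the highest point with Tie1/-2 deletion at 1.99.

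A plate sum does not separate fewer wells with a gene from less RNA per well. At 100 CPM or more in the well, Dusp1 was found in 42.5% to 88.5% of LEC wells a plate, Jun in 39.4% to 58.1%, Ier2 in 38.4% to 48.1% and Junb in 30.2% to 47.1%. Fos reached that level in 6.19% to 34.3% of wells, Zfp36 in 7.37% to 13.4% and Egr1 in 2.56% to 16.6%. Nr4a1 (0.287% to 7.40%), Fosb (0.590% to 4.14%) and Atf3 (0.885% to 3.29%) reached it in the fewest wells. CPM per well was also added over the LEC wells of a plate. The 10% of wells with the most of a gene held 75.4% to 100% of this total for Atf3, against 29.4% to 48.5% for Dusp1. For the sum of the 10 members it held 30.1% to 35.3%.

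In wells thinned to 50000 counts, a well with at least 5 of the 10 members was counted as carrying them. Such wells made up 45.2% and 13.4% on the Tie1fl/fl plates, 73.9% and 15.6% on Tie1iΔLEC, 59.3% and 31.5% on Tie1 Tie2fl/fl and 15.5% and 29.3% on Tie1 Tie2iΔLEC. The Tie1 strain overlapped, and both Tie1 Tie2iΔLEC plates were below both controls. In every genotype but Tie1 Tie2fl/fl the symbol-keyed plate had the larger share. Symbol-keyed plates also had more genes per LEC well, and the part of this in the shares was not tested. Over both strains the deleted plates were 3.79 percentage points lower, with p = 0.889 in a two-sided exact permutation test whose smallest possible p was 0.0556. Without thinning the difference was -21.2 points (exact permutation p = 0.278). Within a strain, 2 plates against 2 cannot give an exact p below 0.33. Wells with at least 3 members at 100 CPM or more went the other way, 12.7 points higher (exact permutation p = 0.111). Background reads also differed between plates. Krt14 of keratinocytes was read in 0.875% to 24.4% of thinned LEC wells and Col1a1 of fibroblasts in 2.33% to 64.3%, both lowest on plate 1 of Tie1 Tie2iΔLEC, and their part in these shares was not tested.

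No trend with the row of the well was detected. The mean Spearman rho over the 8 plates between plate row and summed member CPM was 0.0079, from -0.078 to 0.073, with 4 plates positive (two-sided exact sign-flip permutation p = 0.672, smallest possible 0.00781). The order in which wells were filled is not stated.

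LEC clusters of the plates differed little in the sum of the members. Over 12 clusters the mean summed CPM ran from 1397 to 1921. The median depth of the lowest cluster was 0.476 of that of all kept wells. No plate cluster took the name of capillary LECs, so their level was not read on the plates. The collector LEC-like cluster, led by Slco2a1, Parm1 and Fabp4, stood at 1619 ± 533 (SD, n = 8 plates), and the valve LEC-like cluster led by Neo1, Slc41a1 and Gjd3 at 1672 ± 428 (n = 8). A second valve LEC-like cluster, led by Hbegf, stood at 1894 ± 473 over 6 plates, with Jun at 667 CPM and Dusp1 at 172. In the other 11 LEC clusters Jun had means of 256 to 451 CPM and Dusp1 of 500 to 784. The proliferating LEC-like cluster had the highest mean of Atf3, 93.4 CPM, from 117 wells. Droplet LECs with IgG ranked otherwise. There Atf3 was 429 CPM in proliferating, 1032 in collector, 735 in valve and 142 in capillary LEC-like cells. Clusters were formed without the members but from the same cells, so these values are descriptions.

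From well to well the members followed each other weakly on average, with wide differences between plates. Over the 45 pairs the mean Spearman rho within plates had a median of 0.106. The highest were Fos and Egr1 at 0.280 (0.083 to 0.563 on single plates) and Fos and Fosb at 0.239 (0.091 to 0.544). The gene outside the lists whose level followed the summed members most closely, of 9052 compared, was Junos (mean rho 0.424), which shares bases with Jun. Next was Apold1 (0.218), an endothelial immediate early gene, and no other exceeded 0.110. Counts within a plate share depth and base composition, and weak correlations in sparse counts are no finding.

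Other genes of the response were read from 3 lists on the same plates. A wider immediate early list had 37 of its 38 genes tested, of which edgeR called 1, Ccn2, with Tie1/-2 deletion. Ccn2, a matricellular protein gene, was 83.5 and 65.7 CPM on Tie1 Tie2fl/fl and 503 and 399 on Tie1 Tie2iΔLEC, without overlap (log2 fold change 2.59, SE 0.27, edgeR adjusted p = 0.00458). Of 12 heat shock genes, Hsph1, a co-chaperone gene of HSP70, was called in the same contrast, with 56.5 and 67.0 CPM on the control plates and 224 and 172 on the deleted ones, without overlap. Hsph1 had a log2 fold change of 1.68 (SE 0.24, edgeR adjusted p = 0.0159).

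Of 18 upstream genes, kinases and factors such as Mapk14, Srf and Creb1, none was called. Median log2 fold changes of the 3 lists with Tie1/-2 deletion were 0.02, 0.18 and -0.07. With Tie1 deletion no list gene was called, and the medians were 0.04, 0.01 and 0.04. In the layout contrast the lists had no call and medians of -0.06, -0.08 and -0.19, nearer to the median of all genes than the members were.

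The droplet libraries held 4685 barcodes with IgG and 4331 with Ang2 Ab, with 42337184 and 31720670 UMIs, and 3418 and 2961 cells were kept. Median UMIs of kept cells were 9865 and 7947, and 18.6% and 23.9% of barcodes had over 10% mitochondrial UMIs. The libraries shared 5 barcodes. LECs numbered 1361 and 780, blood vascular endothelial cells (BECs) 1039 and 983, and mural cells 179 and 223. Within the LECs the median depth was 11924 and 11242 UMIs, and the median mitochondrial share 4.58% and 4.87%. Since each condition has 1 library, no test was made, and 95% intervals (exact, from UMI counts) cover counting error only.

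Every member was lower in LECs of the Ang2 Ab library. The 10 members together fell from 13649 CPM (1.36% of all UMIs) with IgG to 9160 CPM (0.916%) with Ang2 Ab, a ratio of 0.671 (0.666 to 0.676). All 10 were at least 1.2-fold lower, as were 13.8% of the 10811 genes with at least 100 UMIs over both libraries, and 5 were at least 1.5-fold lower, against 3.97%. The median ratio was 0.671 over the members and 1.00 over all genes.

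Among the AP-1 genes in LECs, Fos was 3821 CPM with IgG and 2542 with Ang2 Ab (ratio 0.665, 0.656 to 0.675), and Jun was 2946 and 1994 (0.677, 0.666 to 0.688). Junb was lower by more, at 1784 and 1105 (0.620, 0.606 to 0.633), and Fosb by less, at 1075 and 795 (0.739, 0.720 to 0.759). The intervals of Junb and Fosb did not reach those of Fos and Jun.

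Of the other regulators, Nr4a1 had the lowest ratio, with 118 and 65.4 CPM (0.555, 0.507 to 0.606), and Atf3 the next, with 618 and 349 (0.565, 0.544 to 0.587). Ier2 was 491 and 293 CPM (0.598, 0.573 to 0.624) and Egr1 1186 and 827 (0.698, 0.680 to 0.716). The brakes were among the least lowered members. Dusp1 was 1011 and 746 CPM (0.737, 0.718 to 0.758) and Zfp36 601 and 443 (0.738, 0.712 to 0.764).

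Summed over all their cells, BECs had more of the members and a smaller difference than LECs. Their sum was 15434 CPM with IgG and 12729 with Ang2 Ab, a ratio of 0.825 (0.819 to 0.831). Of the 10 members, 6 were at least 1.2-fold lower, against 8.71% of 9945 genes, and 0 at least 1.5-fold lower, against 1.52%. Nr4a1 (0.691, 0.648 to 0.737) and Atf3 (0.710, 0.682 to 0.738) again had the lowest ratios. Dusp1 did not differ beyond counting error, at 822 and 823 CPM (1.00, 0.971 to 1.03). The BEC sum hides differences among BEC clusters. Their summed-member ratios were 0.6605 in the cluster led by Lrat, 0.811 by Sele, 0.879 by Car4 and 0.9504 by Gkn3. The cluster led by Lrat (0.649 to 0.672) was thus about as low as the LEC sum (0.671), and the other BEC clusters were higher. Mural cells, which are not endothelial, had 18003 and 12652 CPM (0.703, 0.693 to 0.713), with member ratios from 0.638 for Egr1 to 0.779 for Dusp1.

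**Figure D3:**
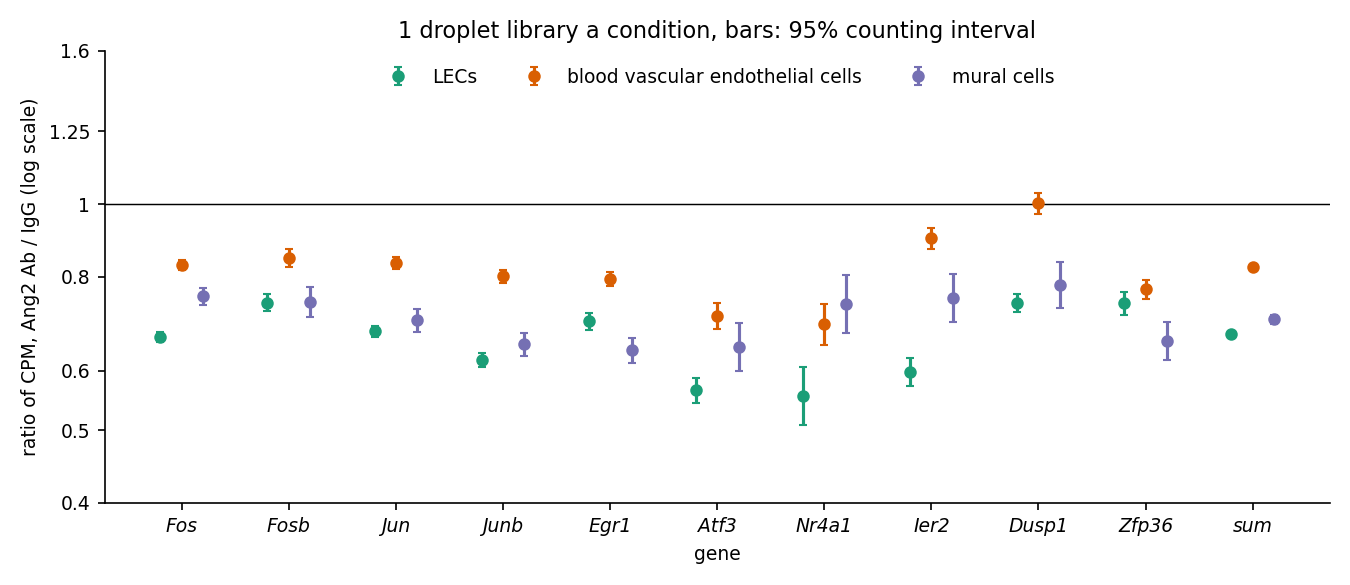
Ratio of CPM, Ang2 Ab to IgG (vertical log axis), of each gene and of the sum of the 10 genes in LECs, BECs and mural cells of the droplet libraries, with 95% counting intervals as bars. All LEC and mural cell points lie below 1, with the LEC sum at 0.671, and the point of Dusp1 in BECs lies at 1.00.

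The difference was not limited to endothelium, and it varied among cell classes. Over all kept cells the sum went from 14619 to 11104 CPM (0.760, 0.756 to 0.763), with all 10 members at least 1.2-fold lower against 10.7% of 12960 genes. Atf3 was at least 1.5-fold lower, against 3.36%. Schwann cells had 21967 and 13813 CPM (0.629, 0.591 to 0.669) from 17 and 11 cells, keratinocytes 0.892 (0.864 to 0.921) and fibroblasts 17627 and 16640 CPM (0.944, 0.921 to 0.967). Of 20 clusters, 18 were lower with intervals below 1, and none had an interval above 1. The exceptions were clusters led by Hba-a1 (1.00, 0.959 to 1.05) and Gm26917 (1.02, 0.963 to 1.09). Their median depth was 0.170 and 0.164 of that of all kept cells of both libraries. A LEC cluster led by Sh3gl3 was as shallow (0.176) and had a ratio of 0.636 (0.533 to 0.757).

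**Figure D4:**
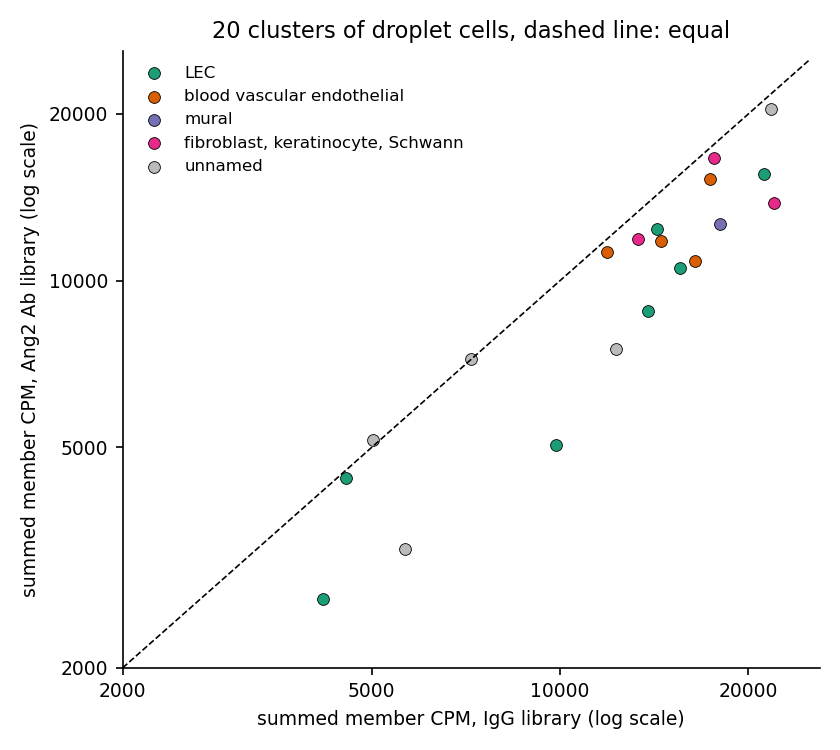
Summed CPM of the 10 genes in each of 20 droplet clusters, IgG library on the horizontal and Ang2 Ab library on the vertical axis (both log scales), with 1 point a cluster, colours for cell classes and a dashed line of equality. Of the points, 18 lie below the line, and the capillary LEC-like cluster sits low, at 4542 and 4397 CPM.

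Within LECs, the collector LEC-like cluster had the highest level, 21149 CPM with IgG and 15594 with Ang2 Ab (0.737, 0.727 to 0.748). Valve LEC-like clusters had 15103 and 11256 CPM (0.745, 0.734 to 0.757) and the proliferating cluster 9845 and 5056 (0.514, 0.495 to 0.533). The proliferating cluster held only 68 and 37 cells, with median depths of 22412 and 15504 UMIs. The largest LEC cluster, with 358 and 213 cells, was led by Ptx3, Gm21541 and Lyve1 and took no subclass name. It had 13822 and 8807 CPM (0.637, 0.629 to 0.646). The capillary LEC-like cluster, led by D330037F02Rik and Reln, had 4542 and 4397 CPM (0.968, 0.943 to 0.993). There Fosb was higher with Ang2 Ab, 420 and 520 CPM (1.24, 1.14 to 1.34), and the intervals of Fos, Atf3, Ier2 and Zfp36 held 1. In cells of this cluster thinned to 2000 UMIs, Fosb was found in 22.8% in both libraries. The 10% of its cells with the highest member CPM held 63.1% and 56.6% of the member CPM added over its cells. The intervals do not cover this spread between cells. Jun (0.868), Junb (0.906), Egr1 (0.887) and Dusp1 (0.879) were lower with intervals below 1, as was Nr4a1, from 134 UMIs to 35 (0.439, 0.294 to 0.641). The members and the listed genes were kept out of the clustering and other genes that follow them stayed in, so levels of clusters are descriptions. With the LEC clusters weighted alike in both libraries, the LEC ratio was 0.708.

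Cells with Xist and cells with Y-linked UMIs were both lower in LECs, with ratios of 0.613 (0.606 to 0.620) and 0.720 (0.712 to 0.729) and all 10 members below 1 in each. In BECs the ratios were 0.939 (0.929 to 0.95), with 8 members below 1, and 0.743 (0.734 to 0.753), with 9. LECs and BECs thus lay far apart in cells with Xist and close together in cells with Y-linked UMIs. The ratio was read within ranges of mitochondrial content and followed no order. In barcodes with over 2% to 5% mitochondrial UMIs the sum was 16147 CPM with IgG and 12250 with Ang2 Ab (0.759), and over 5% to 10% it was 11572 and 9204 (0.795). Barcodes at or below 2% had 10368 and 10599 CPM (1.02), with median depths of 2227 and 1742 UMIs. Over 10% to 20% the sum was 12596 and 9416 CPM (0.748), and over 20% it was 12689 and 11671 (0.920). Antibody, animal, sex mix, sort and library preparation cannot be told apart between the 2 libraries.

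Cells that carried the members were counted after thinning to 2000 UMIs, which left out 48 and 25 LECs. At least 5 of the 10 members were found in 51.5% of LECs with IgG (48.7% to 54.2%, Clopper-Pearson) and 43.4% with Ang2 Ab (39.9% to 47.1%), against 81.1% and 72.9% before thinning. In BECs the thinned shares were 62.5% (59.4% to 65.5%) and 54.4% (51.2% to 57.7%). These intervals cover only the drawing of cells within a library, and cells are not replicates of an antibody. Krt14, which LECs should lack, was found in 0.838% and 0.265% of thinned LECs. Keratinocytes were few, so this does not bound the share of LECs with members from free RNA, which was not measured. The median thinned LEC had 14 member UMIs with IgG and 7 with Ang2 Ab, and the 90th percentiles were 69 and 51.

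Single members ranged widely in the share of thinned LECs. Jun was found in 78.1% with IgG and 72.7% with Ang2 Ab, Fos in 68.3% and 60.0%, Junb in 60.0% and 57.5%, and Dusp1 in 57.8% and 51.0%. Nr4a1 was found in 12.8% (11.0% to 14.7%) and 8.74% (6.83% to 11.0%). All 10 shares were lower with Ang2 Ab. Collector LEC-like cells carried at least 5 members in 76.2% and 68.6% of cells. Capillary LEC-like cells did so in 16% (12.05% to 20.5%) and 22.2% (16.4% to 29.0%). Such intervals over cells do not compare the antibodies.

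**Figure D5:**
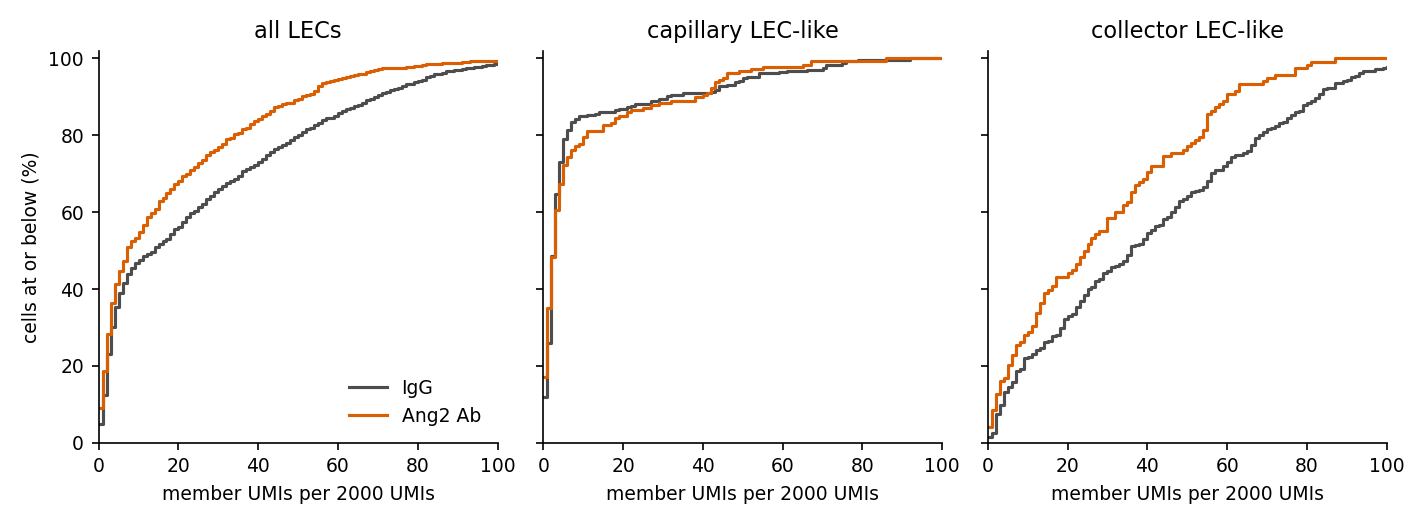
Share of cells (vertical axis, percent) with at most a given number of UMIs of the 10 genes (horizontal axis, per cell thinned to 2000 UMIs) in all LECs, capillary LEC-like and collector LEC-like cells, as 1 line a library. Over all LECs the Ang2 Ab line lies to the left of the IgG line, with medians of 7 and 14 UMIs.

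In droplet LECs the members followed each other far more closely than in the wells. The median rho over the 45 pairs, averaged over the 2 libraries, was 0.618, from 0.308 for Nr4a1 and Dusp1 to 0.806 for Fos and Fosb. Values are given without a test, since cells of a library share its depth, and UMI counts and read counts differ in noise. Among the genes outside the lists that followed the summed members closely, of 6610 compared, were Rgs16 (a regulator of G protein signalling, mean rho 0.572), H3f3b (histone H3.3, 0.567) and Sertad1 (0.547). Among list genes Jund, another AP-1 subunit, reached 0.794, Btg2 0.731, Klf4 0.717 and Klf2 0.709. The flow-response factors Klf2 and Klf4 had LEC ratios of 0.666 (0.653 to 0.679) and 0.868 (0.850 to 0.886).

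The wider immediate early list shifted with the members in LECs. Of 35 genes with enough UMIs, 18 were at least 1.2-fold lower, against 13.8% of all genes, and 2 at least 1.2-fold higher, with a median of 0.793 against 1.00 over all genes. The lowest were Gadd45g (0.328), Csrnp1 (0.40), Egr2 (0.407) and Ier3 (0.484). The 2 higher genes were Pim1 (1.41, 1.31 to 1.51) and Ccn2 (77.8 to 313 CPM, 4.02, 3.78 to 4.29). In BECs 10 of 36 list genes were at least 1.2-fold lower, against 8.71% of all genes, and 2 higher, with a median of 0.911. The share of all genes at least 1.2-fold higher was not counted in LECs or BECs.

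Heat shock and upstream genes did not shift as lists. Of 12 heat shock genes in LECs, 2 were at least 1.2-fold lower, against 13.8% of all genes. These were Hspa1a (0.487, 0.354 to 0.660), at only 11.3 and 5.48 CPM, and Dnajb1 (0.621, 0.559 to 0.689). Hsph1 (1.62, 1.49 to 1.76) was at least 1.2-fold higher, and the share of all genes that were so was not counted. The median of the list was 0.976. None of 18 upstream genes was past 1.2-fold in either direction, with a median of 1.06. In BECs the medians of these lists were 1.00 and 1.01.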

How the data were processed

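The deposited plate tables hold raw read counts per gene and well. Per the labels and the submitters' processing notes, the authors aligned Smart-seq reads to GRCm38/mm10 with TopHat2 2.1.1 and counted them with featureCounts, whose strand setting is not given in the sources used here. The deposited droplet matrices hold raw UMI counts per gene and cell, and name Cell Ranger 6.0.2 in their header against 2.1.1 in the notes. No column was without a sample (0).

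Symbol and Ensembl identifiers were joined to 42612 genes. Wells needed 1000 genes, and barcodes 500 genes and no more than 10% of UMIs from mitochondrial genes. These were clustered (scanpy 1.11.5, 2000 variable genes, 30 components, 15 neighbours, Leiden resolution 1.0) without the members, the listed genes and genes the study names, scaled within each plate or library. Clusters were named from marker lists, except that plate clusters given no other cell type were taken as LECs. The cut-offs for naming were set after the data were seen. Scrublet marked 20 and 2 cells as doublets (0.582% and 0.0675%), which were left out, and it is taken not to have worked in the second library.

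Counts of LEC wells were summed by plate and tested over all 8 plates with edgeR 4.0.16 (quasi-likelihood, TMM-normalised CPM, filterByExpr, 19925 genes) in R 4.3.3, with Benjamini-Hochberg adjustment over all genes tested. DESeq2 1.42.0 was an alternative. Tests of the script on simulated data are quoted beside the results. Nothing says whether plates of a genotype came from separate animals, so p-values measure the spread between these plates. Replicate numbers were not taken to pair plates in the main fits, although same-numbered control and deleted plates of a strain shared a table layout. Shares of wells and trends with position were tested by exact permutation over plates (two-sided). Droplet ratios have exact 95% intervals for counting error, which free RNA and library preparation do not enter, and genes needed at least 100 UMIs over both libraries. All 10 members are named, and from each further list the genes called, or otherwise the 2 highest and the 2 lowest were computed. The members and lists were chosen with earlier results of these data known. Alternatives were other size factors, filters, wells, tools, thresholds, clusterings and each plate left out. Some results are not reported here.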

Additional observations from a re-analysis of the deposited data

Results flagged for a closer look

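Barcodes with over 10% mitochondrial UMIs, which the main comparisons leave out, held more Fosb than the others. Fosb was 2453 CPM (2387 to 2521, exact 95% interval) in 620 such barcodes with IgG, against 1143 CPM in barcodes at or below 10%. With Ang2 Ab it was 1843 CPM (1787 to 1901) in 679 barcodes, against 905 CPM. Fos went the other way, with 2404 against 3902 CPM with IgG and 1937 against 2941 CPM with Ang2 Ab. The ratio of Fosb to Fos was thus 1.02 and 0.952 in these barcodes, against 0.293 and 0.308 in the others. It stood out because these barcodes are outside the main comparisons.

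The 231 fibroblast wells of the plates were also outside the main comparisons. Their mean summed member level was 2458 CPM ± 1394 (SD over 7 plates), above the means of all 12 LEC clusters (1397 to 1921). Their median depth was 0.0847 of that of all kept wells of the plates, and their Fos mean was 451 CPM and their Nr4a1 mean 91.6 CPM.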

How the results depend on the processing

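Of 475 values of 33 member fold changes under alternatives, 435 kept their direction and their side of the threshold, 7 came to pass it and 33 turned, 26 of these without 1 plate. Members called with Tie1/-2 deletion were 1 with DESeq2 and 2 when no low-count filter was used, and between layouts DESeq2 called 4. Numbers of genes called moved more: with Tie1, Tie1/-2 deletion, their difference and the layouts they were 173, 1016, 436 and 1064 with DESeq2, and 279, 1196, 630 and 2 without the filter. Fos with Tie1 deletion was 0.059 with all wells and 0.28 with the layout as a term, Zfp36 0.14 with that term, and with all wells Fosb and Nr4a1 with Tie1/-2 deletion were both -0.11 and Egr1 between layouts 0.048. The replicate block called 0, 170 and 10 genes and 0 members in the 3 genotype contrasts, and Zfp36 with Tie1 deletion was 0.13 under the block. Its same-numbered plates correlated at 0.109 and 0.0988. The labels state no pairing, but same-numbered control and deleted plates of a strain had neighbouring plate ids and the same table layout.

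Without single plates, log2 fold changes with Tie1 deletion ranged from -0.82 to 0.47 for Fos, -0.012 to 0.29 for Fosb, -0.032 to 0.23 for Jun, -0.34 to 1.36 for Egr1, -0.13 to 0.61 for Atf3, -0.37 to 3.64 for Nr4a1, -0.11 to 0.45 for Ier2 and -0.74 to 1.02 for Zfp36. With Tie1/-2 deletion they ranged from -0.73 to 1.91 for Fos, -0.92 to 3.22 for Fosb, -1.17 to 0.34 for Egr1, -0.61 to 1.2 for Nr4a1 and -0.90 to 0.62 for Zfp36. The difference between deletions ranged from -0.050 to 1.14 for Dusp1, and the layout contrast from -0.58 to 0.47 for Egr1. Each of these fits left a genotype with a single plate and so a single table layout. The trend with position ranged from -0.0014 to 0.0202, and the share of wells with at least 5 members from -18.4 to 10.8 points, against 12.7 points for at least 3 members at 100 CPM, an alternative chosen after seeing the data.

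The LEC ratio of summed members was 0.632 at 5% mitochondrial UMIs or less, 0.686 without that limit, 0.699 in thinned cells, 0.687 as a mean over cells, 0.613 and 0.720 in cells with Xist and with Y-linked UMIs, and, added after seeing the data, 0.708 with clusters weighted alike. The BEC ratio was 0.840, 0.804 and 0.835 in the first 3 of these, 0.939 and 0.743 in cells with Xist and with Y-linked UMIs, 0.841 at resolution 2.0, 0.812 with members in the clustering, and 0.832 without the highest Scrublet scores. Over all barcodes, with no class, the ratio was 0.761, which is the value of neither class. All stayed below 1. The cause of these shifts was not tested. With 2 plates a genotype and 1 library an antibody, the number of samples limits these values.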
